A study of Mus musculus with 10 samples.

Results

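The interval described here is the stretch of mouse chromosome 11 from 80 to 100 Mb (mm7 coordinates, as the scanner files give them), a gene-dense region that holds Med1, Cuedc1 and Tubd1. Its members were the array probes placed there, without genes whose names begin with Slfn, Ccl, Krt, Rpl or Rps and without 7 other named genes. Of 41174 probes on the array, 628 lay in the interval, 69 were left out by name, and 559 probes for 371 of the array's 27670 gene names remained. Of these, 460 probes for 307 names were tested, because they were well above background on at least 5 of the 10 arrays. The other 99 member probes were not tested, and 52 of them were not well above background on any array. The interval was singled out with the differences between these same arrays known, so the calls of its members are given as a description and support nothing.

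Total RNA of whole lung was hybridised from 5 wild-type and 5 p53-null mice, each on a 1-colour Cy3 Agilent array. All 10 animals were 8-week-old males that had breathed aerosolized saline for 30 min, and the labels give C57BL/6J as the background of both groups. The labels name no allele for the p53-null mice. The 5 samples of each group are described as biological replicates, and each error after ± is limma's standard error, which combines the probe's spread between these animals with that of all probes.

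Trp53, which encodes the p53 tumour suppressor, lies on the same chromosome, outside the interval. p53 is a transcription factor that is stabilised after DNA damage and other stress and that activates genes for cell cycle arrest, repair and cell death. Med1 and Med13 are subunits of Mediator, the complex that links transcription factors to RNA polymerase II, and Ppm1d encodes Wip1, a phosphatase that p53 induces and that in turn dampens p53 signalling. Tubd1 encodes delta-tubulin, a tubulin of the centriole, and Cuedc1 encodes a protein with a ubiquitin-binding CUE domain.

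The following probe sequences carry the results that turn on single probes. The probes of Med1 are shown because only the middle one in genome order differed by more than 2-fold; those of Cuedc1 because both did; those of Tubd1 and L33255 because they lie next to each other on the same strand; and those of Gdpd1 and Spag9 because probes of one gene gave different values. Each is written 5′ to 3′ as on the array, the first 30 bases for some probes and all 60 for others. Which probes lie in coding sequence was not determined. Capitals mark only the 45 bases that both Spag9 probes share. Med1 and Gdpd1 lie on the minus strand and the others on the plus strand.
Med1 probe at chr11:98261428-98261487: tttgtctcggagtcacgttttggagagaca
Med1 probe at chr11:98263356-98263415: gtggctttggggggtatacatttgttttca
Med1 probe at chr11:98282263-98282322: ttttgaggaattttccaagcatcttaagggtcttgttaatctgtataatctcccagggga
Cuedc1 probe at chr11:88254563-88254622: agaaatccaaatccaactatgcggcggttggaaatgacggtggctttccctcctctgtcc
Cuedc1 probe at chr11:88257926-88257985: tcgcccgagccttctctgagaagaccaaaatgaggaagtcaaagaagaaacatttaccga
Tubd1 probe at chr11:86637007-86637066: cattgttggagcaagttgttgccagttatg
L33255 probe at chr11:86637758-86637817: tttctaaatcttccctctttacaatgaaaa
Gdpd1 probe at chr11:87103898-87103957: gatgtcagattgggagataaattcagtata
Gdpd1 probe at chr11:87105164-87105519: tcaccgcccggggcattcaagtgtacgttt
Spag9 probe at chr11:94223238-94223297: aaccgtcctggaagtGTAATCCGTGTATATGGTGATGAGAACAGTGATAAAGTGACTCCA
Spag9 probe at chr11:94223253-94223312: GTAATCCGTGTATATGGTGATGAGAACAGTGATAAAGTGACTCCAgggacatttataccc

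The label of the p53-null arrays was checked on Trp53. The probe at chr11:69671206-69671265 read -1.67, -1.64, -1.54, -1.43 and -2.22 on wild-type arrays 1 to 5 and -3.15, -2.99, -3.11, -3.00 and -2.66 on p53-null arrays 1 to 5, in log2 of the signal divided by the 75th percentile of its array. Wild-type array 5 lay between the other wild-type arrays and the p53-null arrays, and the groups did not overlap. The difference, p53-null minus wild type, was -1.28 ± 0.16 (SE) and was called. A second Trp53 probe, at chr11:69662031-69662089, differed by 0.31 ± 0.28 and was not called.

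Wild-type array 5 stood apart from its group in other ways. Across probes, its signal rose with the GC content of the probe (r = 0.35), while r ran from -0.32 to 0.0034 on the other wild-type arrays and from 0.0043 to 0.20 on the p53-null arrays. Summed levels of 7 neutrophil markers ran from 4.0 to 8.08 in wild type and from 18.9 to 42.9 in p53-null lung, and all 7 were called higher. Of 6 B cell markers, 5 were called higher (9.56 to 21.6 against 30.1 to 60.7), and 4 of 7 markers of T or NK cells were too (4.11 to 6.04 against 7.27 to 10.3). None of 6 lung epithelial and endothelial markers was called, and all 6 were well above background on every array. Skeletal muscle markers, of which 0 of 7 were called, were high on wild-type array 2 and on p53-null arrays 4 and 5. In bulk tissue, more cells of a type and more RNA per cell cannot be told apart. The part of these differences in the results below was not tested.

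A probe is called where limma gave an adjusted p (Benjamini-Hochberg over all 31599 tested probes) under 0.05. Of the 460 tested member probes, 63 (13.7%) were called, beside 7.10% of all tested probes. Of the called members 30 were higher in p53-null lung, beside 4.0% of all probes, and 33 were lower, beside 3.1%. At 2-fold or more, 14 members were called higher (beside 0.804% of all probes) and 5 lower (beside 0.177%), 19 in all (4.13%, beside 0.981%). For 72 members (15.7%) the arrays of the groups did not overlap, beside 9.16% of all probes. With 1 probe a gene, 52 of 306 genes (17.0%) were called, beside 7.49%. Counting a gene as called where at least 1 of its probes was, 9.48% of all gene names were called, 5.34% with a probe called higher and 4.17% with a probe called lower. These shares stand beside each count of genes below, from which nothing is read either. Since the interval was chosen on this contrast, nothing is read from these shares. On chromosome 11 from 60 to 80 Mb 66 of 582 probes (11.3%) were called, and on chromosome 5 from 40 to 80 Mb 29 of 272 (10.7%).

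**Figure D1:**
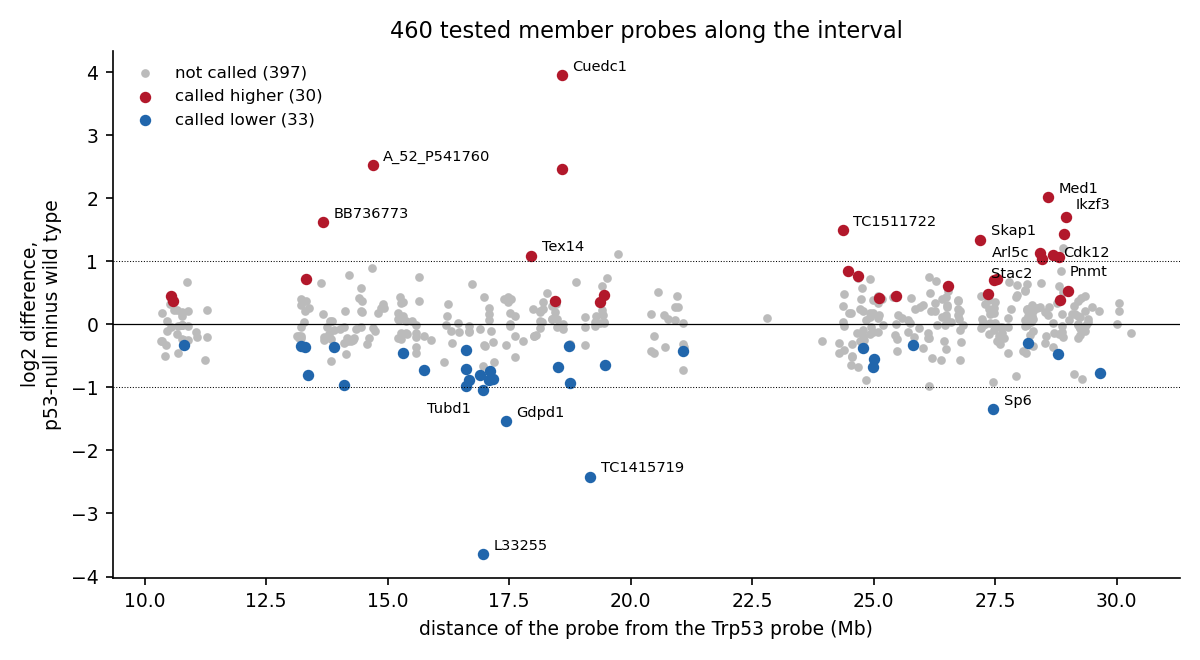
Log2 difference (p53-null minus wild type) of the 460 tested member probes against their distance from the Trp53 probe in Mb. Red and blue points are the 30 probes called higher and the 33 called lower, grey points were not called, and dotted lines mark 2-fold. Most points lie near 0, and Cuedc1 stands at 3.96. The L33255 point is plotted at its fitted difference of -3.64, which is not a bound. Its signal was not well above background on any p53-null array, so it is only known to be at least 4.68-fold lower.

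Along the interval, the windows given here were picked after their values were seen, and 7.10% of all probes were called. From 86 to 87 Mb, 10 of 27 tested probes were called and all 10 were lower in p53-null lung. From 98 to 99 Mb, 10 of 47 were called, 9 of them higher and 7 at 2-fold or more. From 88 to 90 Mb 10 of 37 were called, 5 higher and 5 lower, and from 90 to 94 Mb 1 of 21 was called. At the ends of the interval, the last member inside the lower end, Utp6, differed by -0.26 ± 0.20 and the first probe outside it by 0.60 ± 0.60. At the upper end, the last member inside differed by -0.13 ± 0.33 and the first probe outside, of Krtap31-1, by -0.12 ± 0.34. None of these 4 probes was called.

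Cuedc1 had the largest difference among called members measured above background in both groups. The probe at chr11:88257926-88257985 read -3.59, -3.71, -3.97, -3.69 and -3.56 on wild-type arrays 1 to 5 and 0.11, 0.08, 0.24, 0.50 and 0.35 on p53-null arrays 1 to 5. Every p53-null array was far above every wild-type array, and wild-type array 5 lay with its group. The difference was 3.96 ± 0.11. The second probe, at chr11:88254563-88254622, read -2.55, -2.55, -2.55, -2.40 and -1.79 in wild type and -0.16, 0.13, 0.06, 0.30 and 0.18 in p53-null lung, a difference of 2.47 ± 0.16. Here wild-type array 5 was the highest of its group, still below every p53-null array. Cuedc1 was the 1 gene with several tested probes in the interval for which every probe was called.

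Among Mediator, RNA polymerase II and chromatin genes, 3 of 24 tested genes had a probe called higher and 6 a probe called lower (37.5% in all, beside 9.48% of all gene names), with a median difference of -0.01 over the list's tested probes, beside 0.04 over all tested probes. The middle Med1 probe, at chr11:98263356-98263415, read 0.04, -0.17, 0.01, 0.02 and -0.03 in wild type and 1.98, 1.90, 1.93, 2.11 and 2.02 in p53-null lung. The 2 groups did not overlap, and the difference was 2.02 ± 0.08. The other 2 Med1 probes, shown above, differed by 0.14 ± 0.11 at chr11:98261428-98261487 and 0.27 ± 0.11 at chr11:98282263-98282322 and were not called. One probe of Cdk12, a kinase of the RNA polymerase II tail, differed by 1.10 ± 0.12, and its other 3 probes by 0.02 ± 0.35, -0.35 ± 0.17 and -0.14 ± 0.08. Srsf1, a splicing factor, had 1 probe called higher at 0.37 ± 0.09, and its other tested probe differed by 0.20 and was not called.

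Lower in this list were Med13 and 5 others. The called Med13 probe read -0.11, -0.15, -0.11, -0.11 and -0.90 in wild type and -1.28, -1.19, -1.16, -1.10 and -1.03 in p53-null lung. Wild-type array 5 lay much nearer the p53-null arrays than its own group, without overlapping them. The difference was -0.88 ± 0.16, or -1.03 ± 0.07 without that array, and the other 3 tested Med13 probes differed by -0.12, -0.11 and -0.03 and were not called. One probe of Smarce1, a subunit of the SWI/SNF remodelling complex, was called at -0.78 ± 0.13, while the other differed by 0.21 ± 0.08. Ints2 (Integrator), Taf15, Zfp207 and Cwc25 were called with differences of -0.41, -0.36, -0.33 and -0.30. The other tested probes of Taf15, Zfp207 and Cwc25 differed by -0.09, -0.25 and 0.14 and were not called.

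**Figure D2:**
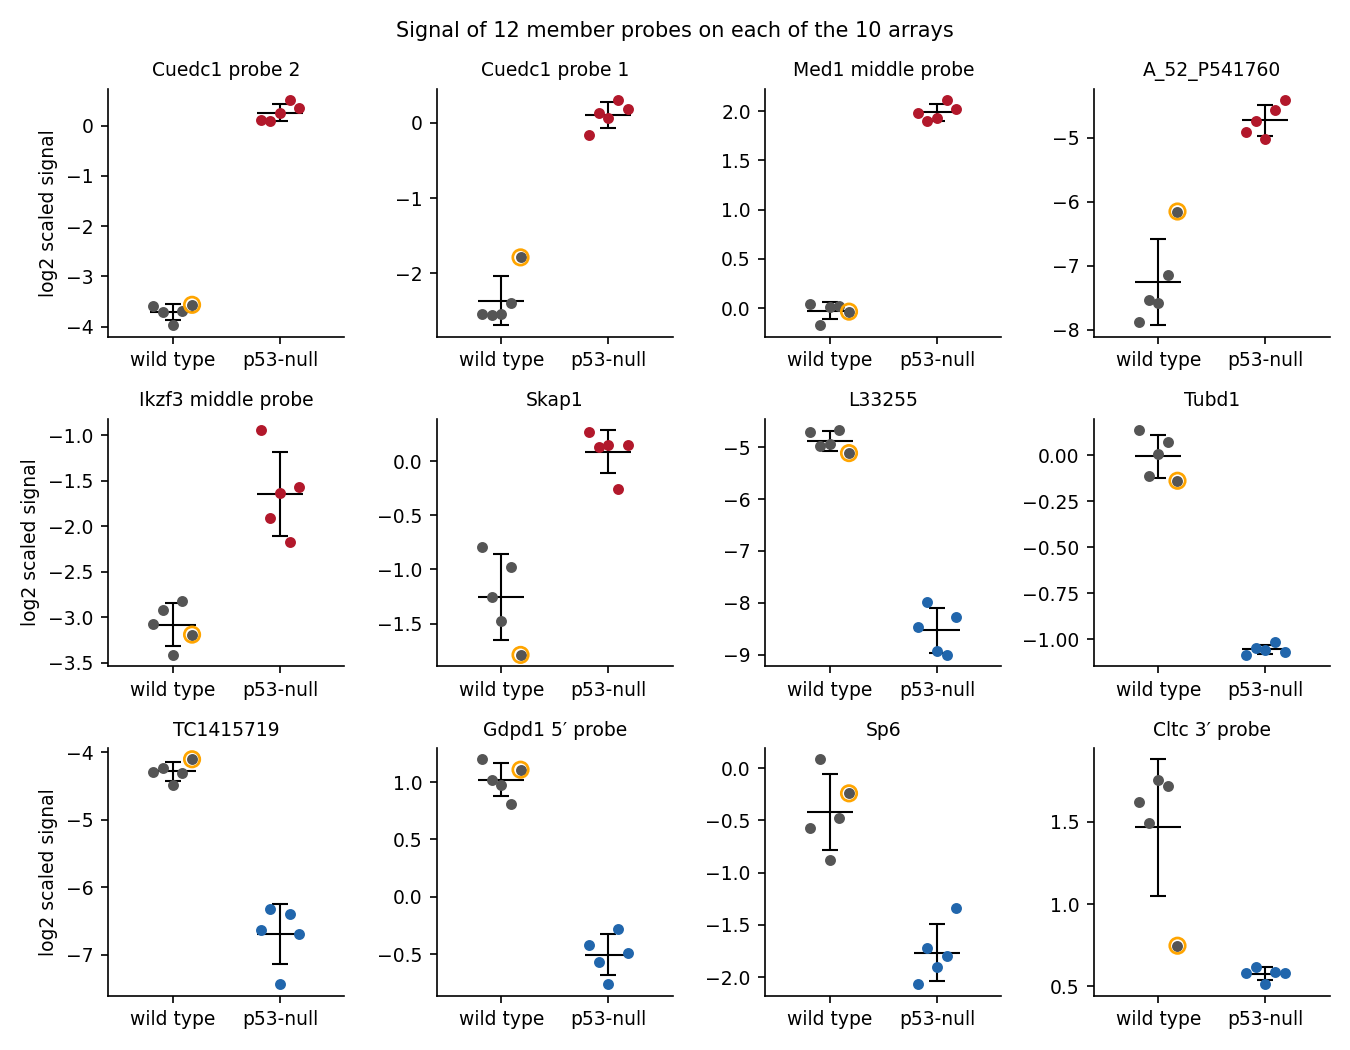
Log2 scaled signal (log2 of signal over the array's 75th percentile) of 12 member probes on each array, wild type at left and p53-null at right in each panel, with the mean and SD over 5 arrays. Orange rings mark wild-type array 5, and each panel has its own vertical scale. Groups do not overlap in any panel, and array 5 sits away from its group for Cltc, the A_52_P541760 probe and the first Cuedc1 probe.

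Tubd1 and L33255 are neighbours on the plus strand. The Tubd1 probe, at chr11:86637007-86637066, read 0.14, -0.11, 0.01, 0.07 and -0.14 in wild type and -1.08, -1.05, -1.06, -1.02 and -1.07 in p53-null lung. All p53-null arrays were within a narrow range below every wild-type array, and the difference was -1.05 ± 0.08. The L33255 probe, at chr11:86637758-86637817, read -4.72, -4.98, -4.95, -4.67 and -5.12 in wild type and was not well above background on any p53-null array. Its signal in p53-null lung is therefore only bounded: it was at least 4.68-fold lower, against the lowest signal among probes well above background on each p53-null array, or the probe's own signal where that was higher. With normexp background correction its difference was -1.19. The files name this probe by its accession alone, and no gene is assigned to it here.

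The other called probes from 86 to 87 Mb were lower too. Cltc, the clathrin heavy chain of endocytic vesicles, had 2 probes called, at -0.89 ± 0.18 and -0.73 ± 0.10, and 1 at -0.11 ± 0.20 that was not called. The first of these read 1.62, 1.49, 1.75, 1.71 and 0.75 in wild type and 0.58, 0.62, 0.51, 0.59 and 0.58 in p53-null lung, so that wild-type array 5 was close to the p53-null arrays. Dhx40, a putative RNA helicase, read 1.82, 1.70, 1.91, 1.95 and 1.08 against 0.50, 0.92, 1.03, 0.78 and 0.90, with array 5 just above the highest p53-null array. The first Cltc call and the Dhx40 call were each kept in 2 of 10 fits that left out 1 array. Of the 10 called probes between 86 and 87 Mb, wild-type array 5 lay nearer the p53-null mean for 5. Without that array, the Cltc, Dhx40 and Brip1os probes differed by -1.07 ± 0.07, -1.02 ± 0.11 and -0.84 ± 0.08.

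Gdpd1, a phosphodiesterase of phospholipid metabolism, also had probes that disagreed. Its called probe, at chr11:87105164-87105519, read 1.20, 1.02, 0.97, 0.81 and 1.11 in wild type and -0.42, -0.57, -0.77, -0.29 and -0.49 in p53-null lung, with no overlap, and differed by -1.53 ± 0.11. The other, at chr11:87103898-87103957, differed by -0.32 ± 0.09 and was not called. TC1415719, a transcript cluster that was well above background on 3 of 5 p53-null arrays, differed by -2.41 ± 0.19, or -1.17 with normexp.

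DNA replication, repair and p53-linked growth control held 12 tested genes, of which 0 were called higher and 3 lower (25.0%, beside 9.48%), with a median difference of -0.13. Lig3, a DNA ligase of base excision and single-strand break repair, was called at -0.34 ± 0.08, a call kept in 1 of 10 fits that each left out 1 array. The other tested Lig3 probe differed by -0.19 and was not called. One Ppm1d probe was called at -0.73 ± 0.18, with values of -0.67, -0.82, -0.47, -0.43 and -1.43 in wild type and -1.74, -1.48, -1.42, -1.55 and -1.26 in p53-null lung. The groups overlapped, because wild-type array 5 lay among the p53-null arrays. That call too was kept in 1 of the 10 fits, and the other tested Ppm1d probe, with wild-type array 3 missing, differed by -0.18 ± 0.11. Brip1 and Aatf were not called, nor were Cdc6 (0.44 ± 0.17 and -0.01 ± 0.13) and Trim37 (0.40, -0.52 and -0.19).

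p53 is known to bind DNA at pairs of decamers. The p53 half-site consensus (a palindrome, searched on both strands) was counted in the 250 bases before each gene's start (RefSeq promoters, GRCm38.p6). Of 37 called member genes with such a promoter, 3 held it (8.11%), beside 10 of 163 tested member genes (6.13%) and 8.2% of all 27025 genes. These 3 were Unc45b, Ppm1d and Spag9. The full site, a pair of half-sites, was found in none of the 37, beside 0.0666% of all genes. A match is a run of letters and does not show binding. In the 250 bases before the start of Ppm1d, on the plus strand, capitals mark the half-site that begins 132 bases before the start.
Ppm1d promoter at chr11:85311004-85311253 (GRCm38.p6): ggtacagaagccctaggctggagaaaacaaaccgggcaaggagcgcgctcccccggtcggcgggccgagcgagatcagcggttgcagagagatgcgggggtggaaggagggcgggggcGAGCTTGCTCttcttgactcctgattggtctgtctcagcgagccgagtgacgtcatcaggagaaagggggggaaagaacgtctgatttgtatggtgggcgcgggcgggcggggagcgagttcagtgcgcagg

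Of 8 tested genes of immune cells 4 had a called probe, all higher (50%, beside 5.34% of all gene names called higher), and the median over the list's probes was 0.68. The list's lowest probe, of Gsdma, differed by -0.79 ± 1.92 and was not called. Ikzf3, which encodes the lymphocyte transcription factor Aiolos, had probes at 1.70 ± 0.32 and 1.44 ± 0.21 that were called and 1 at 1.21 ± 0.43 that was not. With normexp the first was 0.97, and its call was kept in 5 of 10 fits that each left out 1 array. The middle one read -3.07, -2.92, -3.41, -2.82 and -3.19 in wild type and -0.94, -1.91, -1.63, -2.17 and -1.57 in p53-null lung, with no overlap. Skap1, an adaptor of T cell receptor signalling, differed by 1.35 ± 0.19. Tbx21, which encodes T-bet of T and NK cells, differed by 0.73 ± 0.18 with 1 wild-type array missing, and Trim25, a ubiquitin ligase of antiviral sensing, by 0.46 ± 0.09. The other tested Trim25 probe differed by 0.04 and was not called. Summed lymphocyte markers were higher in the p53-null arrays, by the ranges given above, and their part in these differences was not tested.

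Among the 22 tested DNA-binding transcription factors, Ikzf3 and Tbx21 were called higher and Sp6, a zinc-finger factor of epithelial and tooth development, lower (13.6%, beside 9.48%; list median 0.09). The called Sp6 probe read -0.58, 0.08, -0.88, -0.48 and -0.24 in wild type and -2.07, -1.72, -1.90, -1.79 and -1.33 in p53-null lung, without overlap, and differed by -1.34 ± 0.19. Its second probe differed by -0.92 ± 0.25 and was not called. Sp6 was highest on wild-type array 2 and p53-null array 5 of their groups, the arrays on which squamous epithelium markers were high (0 of 6 called, summed levels from 0.549 to 42.6 in wild type and from 0.583 to 17.2 in p53-null lung), and their part in its difference was not tested. No tested probe of Hoxb2, Hoxb4, Hoxb5, Hoxb6 or Hoxb7 was called, with differences from -0.28 to 0.39, nor was any of Thra, Nr1d1 and Rara.

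Of 27 genes of the proteasome, ubiquitin and protein transport, 4 were called higher (Cuedc1, Spag9, Trim25 and Calcoco2) and 3 lower (Cltc, Rnft1 and Tom1l1), with a list median of -0.01 (25.9%, beside 9.48%). Calcoco2, Rnft1 and Tom1l1 each had 1 tested probe called and 1 not called. Of 16 tested cytoskeleton, adhesion and matrix genes, 3 were called higher and 2 lower (31.2%, beside 9.48%; median 0.11). Unc45b, a myosin chaperone of striated muscle, read 3.54, 3.77, 3.59, 3.56 and 3.48 in wild type and 2.68, 2.76, 2.83, 2.83 and 2.84 in p53-null lung. It did not overlap between groups, its difference was -0.80 ± 0.08, and it was called in all 10 fits that left out 1 array. In wild type it was highest on array 2, where skeletal muscle markers were also high. In p53-null lung muscle markers were low on arrays 1 to 3 and high on arrays 4 and 5, beside the Unc45b values given above. When the 3 arrays high in muscle markers were left out, Unc45b differed by -0.79 and was no longer called (limma adjusted p 0.081). In that fit 0.0380% of all probes were called. The part of these markers in its difference was not tested. Stac2 (1.03 ± 0.23), Tex14, a protein of germ cell bridges (1.09 ± 0.13, or 0.63 with normexp), and Xylt2, a xylosyltransferase of proteoglycan synthesis (0.41 ± 0.08), were called higher. The other tested Xylt2 probe differed by 0.15 and was not called.

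Of 21 mitochondrial and metabolic genes 1 was called (4.76%, beside 9.48%), Pnmt, the enzyme that makes adrenaline from noradrenaline (1.06 ± 0.20, or 1.24 ± 0.13 without wild-type array 5), and the list's median was -0.03. The Pigw probe at chr11:84947444-84947503, of an enzyme of GPI anchor synthesis, differed by -0.23 ± 0.07 and was not called. Of 24 receptor and signalling genes, Skap1 was called higher and Msi2 and Ppp1r1b lower (12.5%, beside 9.48%; median 0.00). The Nog probe, of the BMP antagonist noggin, differed by 1.11 ± 0.64 and was not called, with wild-type values from -6.58 to -3.24 that overlapped the p53-null ones.

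Several large differences belonged to probes without a gene name. The A_52_P541760 probe, at chr11:84360192-84360250, read -7.88, -7.54, -7.58, -7.15 and -6.15 in wild type, where it was well above background on 3 of 5 arrays, and -4.91, -4.74, -5.01, -4.56 and -4.41 in p53-null lung. It differed by 2.53 ± 0.29, with wild-type array 5 about midway between the groups, and by 1.09 with normexp background correction. It lies within the genomic span of a spliced probe of Acaca, the acetyl-CoA carboxylase of fatty acid synthesis, whose 4 tested probes differed by 0.89, -0.06, -0.11 and 0.18 and were not called. BB736773 differed by 1.62 ± 0.30 and was well above background on 2 of 5 wild-type arrays. With normexp it differed by 0.65 and was no longer called, nor was it without p53-null array 3. TC1511722, described in the files as part of Mbtd1, differed by 1.49 ± 0.20 (0.87 with normexp), while the Mbtd1 probes differed by 0.03 ± 0.23 and -0.40 ± 0.11. Of the lower ones, ENSMUST00000081097 differed by -0.98 ± 0.09.

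Probes of one gene often fell on different sides of the threshold. Of 109 member genes with at least 2 tested probes, 29 had a called probe. Of these, 28 (25.7% of 109) also had a probe that was not called, beside 12.9% of such genes on the whole array. Members were also called more often than all probes (13.7% beside 7.10%), so nothing is read from these shares. Such a split can come with close values, as for Calcoco2 (0.61 and 0.53). Every probe was called for 1 gene (0.917%), beside 1.90%. In 8 genes with a call the probes lay on both sides of 0, and 0 genes had called probes of opposite direction. The median gap between the highest and lowest probe of a gene was 0.32, and 10 genes had a gap of 1 or more.

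**Figure D3:**
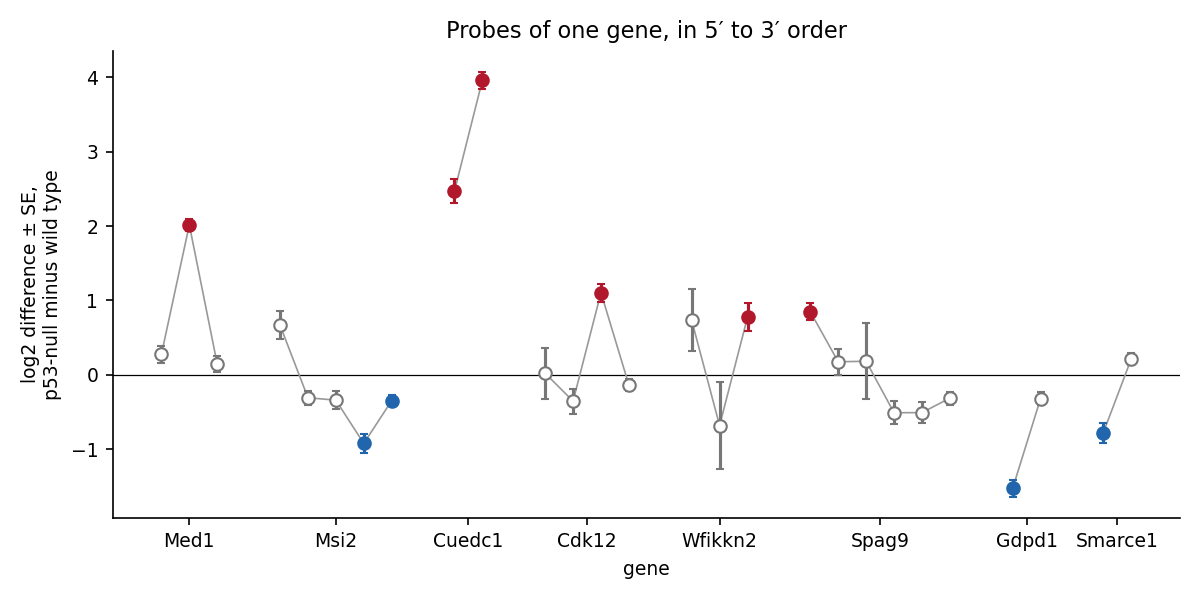
Log2 difference ± SE (p53-null minus wild type) of each tested probe of the 8 genes with the widest gap between probes and at least 1 call, ordered 5′ to 3′ along the gene. Filled points were called (red higher, blue lower) and open points were not. A single Med1 probe stands at 2.02 between neighbours at 0.27 and 0.14, and Msi2 runs from 0.67 to -0.92.

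The widest gap was that of Med1, and Msi2, an RNA-binding protein of stem cells, came next. Its 5 probes differed, from the 5′ end, by 0.67, -0.31, -0.34, -0.92 and -0.35, of which the last 2 were called. The 6 tested probes of Spag9, a scaffold of JNK signalling, differed by 0.85, 0.18, 0.18, -0.51, -0.51 and -0.31 from 5′ to 3′, and only the first was called. The 2 at -0.51 are the pair shown above that share 45 bases. Arl5c, a small GTPase, had 1 probe called at 1.13 ± 0.17 and 1 at 0.28 ± 0.33. Wfikkn2, a protease inhibitor that binds growth factors of the myostatin family, had probes at 0.77 ± 0.19 (called, in 1 of 10 fits that left out 1 array), -0.68 ± 0.58 and 0.73 ± 0.42. No annotation of the mm7 build was used here, so the exon or UTR that each probe lies in is not given.

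**Figure D4:**
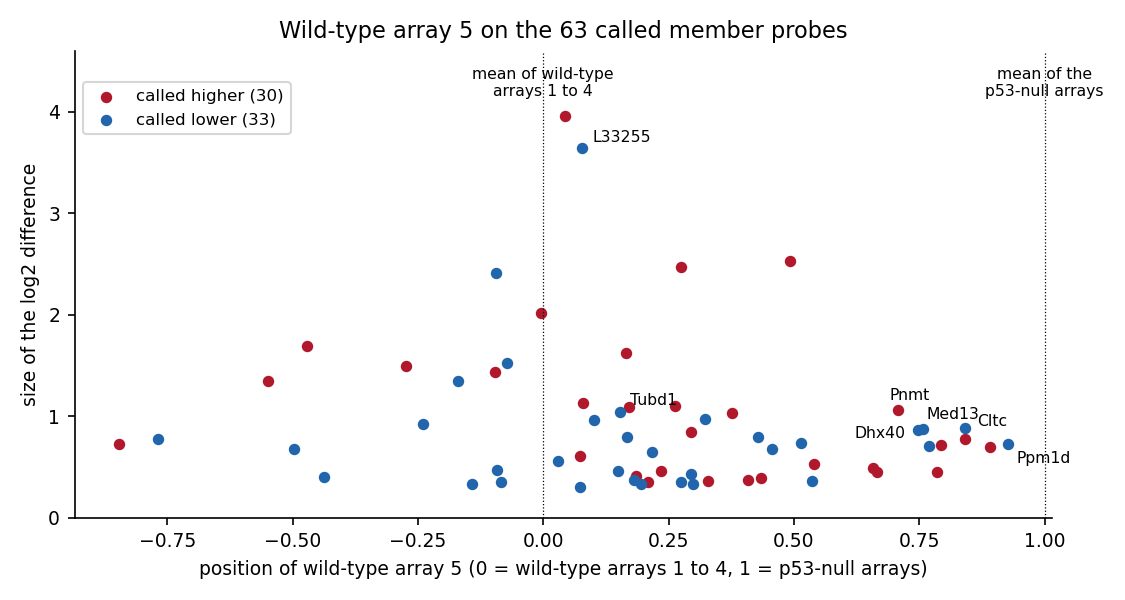
Size of the log2 difference of the 63 called member probes against the position of wild-type array 5, where 0 is the mean of wild-type arrays 1 to 4 and 1 the mean of the 5 p53-null arrays. Of these probes 15 lie past the midpoint, among them Cltc, Med13, Dhx40, Ppm1d and Pnmt, while L33255 and Tubd1 lie near the wild-type mean.

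Wild-type array 5 lay nearer the p53-null mean for 15 of the 63 called probes, 8 of those called higher and 7 of those called lower. Of the 19 called at 2-fold or more, it lay nearer wild type for 18, and Pnmt was the exception. Without this array, 173 member probes were called (37.6%, beside 30.6% of all probes), including all 63 in the same direction, and 30 at 2-fold or more, beside 2.71%. Without the 3 arrays high in muscle markers, 5 members were called, beside 0.0380% of all probes. Called member probes had a median GC content of 45% where higher and 41.7% where lower, beside 43.3% of all tested members. With the GC trend of each array removed, 50 members were called, 19 higher and 31 lower. The share of all probes called in that fit was not counted, so nothing is read from this balance. The arrays lay on 6 slides, of which 1 held both groups (wild-type array 4 and p53-null array 2). On that slide the p53-null array differed from the wild-type array by 3.77 for the more changed Cuedc1 probe, 1.88 for the middle Med1 probe and -1.12 for Tubd1, arrays that also entered the fit. With slide as a random block limma called 58 members, and as a fixed block 0. The share of all probes called was not counted for either fit. In fits that each left out 1 array, 21 of the 63 called member probes were called every time, 15 of them among the 19 at 2-fold or more. Of the 63, 36 were called in 5 or fewer of these 10 fits, and the median was 3. The same was not counted over all called probes, so nothing is read from these counts.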

How the data were processed

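Total RNA from 5 wild-type and 5 p53-null lungs was hybridised to 1-colour Agilent arrays, and the deposited values are intensities, the processed signal of each spot. Scanner images were read with Agilent Feature Extraction 9.5, as the submitters' processing notes name it. Spots of a probe were averaged after log2 and after subtracting each array's 75th percentile; outlier-flagged and control spots were left out. Of 10 arrays, 71.4 to 84.0% of spots were well above background, and probes needed at least 5 arrays. limma 3.58.1 (R 4.3.3) compared the groups over 31599 probes, with Benjamini-Hochberg adjustment and a threshold of 0.05. Tested on simulated data for this comparison over 31599 probes, the fit recovered 34.3% of changes of 1.5-fold, 70.1% of 2-fold and 90.9% of 4-fold. The simulated noise was independent between probes, so trends shared across an array, such as that with GC content, were not part of this test. Named genes were Med1, Cuedc1 and Tubd1, the 10 highest and 10 lowest called members whose groups did not overlap, the 8 genes with the widest gap between probes among those with a call, 2 genes from each role list with the smallest p (except where not reported here), and the ends of the interval. The other called members of a list were named after their values were seen, as were Nog, Gsdma, Brip1os, the Hoxb genes and other uncalled genes. The members and lists were chosen with earlier results of these data known. Alternatives changed the background correction, scaling, probe filter, GC trend, slide, scan day and array weights, and left out arrays. Probes were named through RefSeq (300 by accession, 94 by symbol and 43 by synonym), and 122 kept the name in the files. Number pairing was checked: same-numbered arrays of the 2 groups deviated with r from -0.23 to 0.01, none over 0.1, so numbers were not used as pairs. A result on a withheld item is not reported here.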

Additional observations from a re-analysis of the deposited data

Results flagged for a closer look

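In 96 groups of 5 arrays (the named probes in each genotype), 10 had 1 array whose gap to the nearest other exceeded the 95% critical value of Dixon's test, which chance gives for about 1 in 20 groups. Wild-type array 5 was that array for 6 probes: Cuedc1 at chr11:88254563-88254622 (-1.79, nearest -2.4), Med13 (-0.9, nearest -0.15), Cltc (0.75, nearest 1.49), Dhx40 (1.08, nearest 1.7), ENSMUST00000081097 (-3.7, nearest -3.41) and Smarce1 (0.44, nearest -0.02). It lay toward the p53-null arrays for the first 5 and away from them for Smarce1. The Pigw probe at 84947444 had wild-type array 1 at -3.64 (nearest -3.6) and p53-null array 1 at -3.72 (nearest -3.84), although both gaps are small. Skap1 had p53-null array 4 at -0.26 (nearest 0.13), and the 5′ Med1 probe had wild-type array 3 at -4.5 (nearest -4.13).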

How the results depend on the processing

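The called named probes kept their direction in all 803 of their alternative values. Normexp moved the dim ones by over 1.5 times, as given with each. Member probes called (63) fell to 38 with no filter on dim probes, 38 with the slides' number range as block, 24 with scan day as a block (the same arrays as without wild-type array 3), 15 at an adjusted p under 0.01 and 5 without the 3 arrays high in muscle markers (wild-type 2, p53-null 4 and 5); they rose to 141 with the GC trend removed and wild-type array 5 left out and to 171 with array weights. Leaving out 1 array at a time gave 22 (without p53-null array 3) to 173 (without wild-type array 5). With slide as a fixed block, which leaves 1 slide to compare the groups, limma called 0. Shares of all probes were not counted for most of these alternatives, so nothing is read from the counts. Under array median scaling 44 were called, 16 of them higher. Calls at 2-fold or more (19) were 13 with normexp background correction and 12 where probes had to be above background on all 10 arrays. They were 11 at 0.01, 5 without the 3 arrays and 0 with slide fixed, and 16 to 30 with 1 array left out. Genes with called and uncalled probes (28) were 14 under median scaling, 17 with no filter, 16 with the GC trend removed, 48 with that and without wild-type array 5, 16 with the slide range, 10 with scan day, 0 with slide fixed, 5 at 0.01, 2 without the 3 arrays, 55 with array weights and 10 to 56 with 1 array left out.

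With the replicate number as a block, 8 member probes were called, all 8 at 2-fold or more, and 2 genes had called and uncalled probes; the numbers do not pair the arrays.

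Reversals were limited to 4 uncalled probes. With slide fixed, Spag9 probes at 94158525 and 94202772 turned to -0.058 and -0.10, the middle Wfikkn2 probe to 0.30 and the first Cdk12 probe to -0.90. The second of these Spag9 probes gave -0.023 under quantile normalization and -0.022 with scan day as a block, and -0.15 to 0.56 with 1 array left out. That Cdk12 probe gave -0.18 under quantile normalization, -0.050 under median scaling, -0.11 with the GC trend removed and wild-type array 5 left out, -0.041 with slide as a random block, -0.11 with array weights, -0.26 without the 3 arrays and -0.16 to 0.24 with 1 array left out. The cause was not tested. Arrays limit the precision by their number, and 5 a group set it here.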
